A study of Mus musculus with 56 samples.

Results

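Glycolysis, the pentose phosphate pathway and the citrate cycle were followed through 40 genes, chosen by name, in hybridizations of OV cells, a mouse ovarian surface epithelium line, against 3T3 cells, a mouse fibroblast line. Of these genes 34 had a probe on the array, out of 15063 genes with a probe of a single symbol, and they were measured by 38 probes. Aldoa, Eno1, G6pdx, Gpi1, Pdk1 and Pkm had no probe assigned and were not analysed here. A single probe stood for 31 members, Hk2 and Cs had 2 each and Hk1 had 3. The series holds 56 two-colour hybridizations, of which 28 set OV against 3T3 in 7 comparisons of 4 arrays. GA and SMART were used from 10 pg of total RNA, IVTIII, GA, SMART and SM37 from 10 ng, and cDNA without amplification from 100 μg. IVTIII is a linear amplification by in vitro transcription, GA is a global PCR amplification, and SMART and its modification SM37 are PCR amplifications with template switching. Each cell type is represented by 1 line, with no treatment in the labels. By the study's methods the 4 arrays of a comparison hold 2 independent replicates of each line with dyes exchanged. The sources used here do not say that these came from separate cultures. P values therefore measure only the spread between these samples, which may be technical. The main tests took the 4 arrays as independent. Dye-swap pairs were assumed from the hybridization numbers, 1 with 2 and 3 with 4. Over probes the arrays of these pairs correlated best in IVTIII, GA and SM37, and not in SMART or unamplified cDNA. The estimated correlation within dye-swap pairs was 0.33 in GA from 10 ng and 0.45 from 10 pg, where p values may be too small. It lay between -0.27 and 0.17 in the other comparisons. No test of a difference between methods allowed for these pairs. The other arrays compared technical replicas of OV, OV with itself, or amplifications of RNA from pooled neural stem cells.

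Glycolysis splits glucose into pyruvate in the cytosol and yields ATP without oxygen. Pyruvate either leaves the cell as lactate or enters the mitochondrion, where the pyruvate dehydrogenase complex turns it into the acetyl-CoA that feeds the citrate cycle. The pentose phosphate pathway branches off at glucose 6-phosphate and supplies NADPH and ribose 5-phosphate. Many glycolytic genes are textbook targets of the hypoxia-inducible factor HIF, which binds a short core element in DNA.

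Promoters are shown for 4 members with large ratios in unamplified cDNA, 3 of them lower in OV (Pgk1, Ldha and Cs) and 1 higher (Slc16a3). Each is the 300 bases around the annotated start from RefSeq on GRCm38.p6, and capitals mark the HIF core element, searched as ACGTG or GCGTG on both strands.
Pgk1, chrX:106186850-106187149, + strand: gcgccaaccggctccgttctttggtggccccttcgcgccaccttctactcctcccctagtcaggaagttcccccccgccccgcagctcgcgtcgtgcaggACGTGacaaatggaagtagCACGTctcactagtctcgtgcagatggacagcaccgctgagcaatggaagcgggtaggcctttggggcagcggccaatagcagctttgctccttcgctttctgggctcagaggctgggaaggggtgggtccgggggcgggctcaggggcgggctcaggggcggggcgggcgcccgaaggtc
Ldha, chr7:46845554-46845853, + strand: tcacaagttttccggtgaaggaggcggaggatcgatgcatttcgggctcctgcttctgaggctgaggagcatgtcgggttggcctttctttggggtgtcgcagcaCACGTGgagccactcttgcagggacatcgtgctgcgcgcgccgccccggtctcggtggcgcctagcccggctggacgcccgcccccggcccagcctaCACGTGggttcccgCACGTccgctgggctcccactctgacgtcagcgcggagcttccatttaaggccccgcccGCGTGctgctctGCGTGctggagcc
Slc16a3, chr11:120948817-120949116, + strand: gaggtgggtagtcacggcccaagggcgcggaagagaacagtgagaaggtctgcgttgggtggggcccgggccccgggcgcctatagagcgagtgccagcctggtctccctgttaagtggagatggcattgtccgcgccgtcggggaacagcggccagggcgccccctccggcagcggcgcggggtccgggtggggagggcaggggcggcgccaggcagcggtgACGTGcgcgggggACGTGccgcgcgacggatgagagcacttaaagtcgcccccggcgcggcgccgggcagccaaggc
Cs, chr10:128337477-128337776, + strand: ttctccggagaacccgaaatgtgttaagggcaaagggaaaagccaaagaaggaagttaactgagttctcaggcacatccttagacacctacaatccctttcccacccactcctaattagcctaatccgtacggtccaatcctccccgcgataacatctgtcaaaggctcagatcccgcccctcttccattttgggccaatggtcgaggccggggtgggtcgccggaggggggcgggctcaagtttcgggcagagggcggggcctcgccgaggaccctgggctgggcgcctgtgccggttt
Of the 40 members 39 matched a promoter entry, and Idh3a did not. The element was present in 47 of 59 member promoters (79.7%) and in 43.8% of all 32851 promoters of this length. The member promoters include overlapping entries of 1 gene and those of members without a probe. Counted by member, 33 of 39 had a match in at least 1 promoter, and no such count was made over all genes. Enrichment was not tested. The promoters of Pgk1 and Slc16a3, whose ratios had opposite signs, hold 2 matches each. The Ldha promoter shown, the first of 2 listed, holds 7, of which some lie in CACGTG, a word that contains ACGTG on both strands and occurs in 7.15% of all promoters. The promoters of Cs and Suclg2, both lower in OV, hold none. A match describes letters only.

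All values are log2 ratios of OV over 3T3, so a value of 1 is a level in OV 2 times that in 3T3 and a negative value a lower level in OV. The deposited ratios were read as Cy5 over Cy3, which is likely and not settled, since the study's text gives both directions. Cdkn2a, a tumour suppressor gene deleted in 3T3 lines, had a ratio of 1.58 in unamplified cDNA (limma, adjusted p = 7.39e-05). There, 10 of 16 tested marker genes of ovarian surface epithelium or mesothelium were higher in OV, led by Upk1b (4.26), Wt1 (3.65) and Krt8 (3.44), and Krt18 and Cd200 were lower. Of 10 tested fibroblast markers 4 were lower in OV, led by Prrx1 (-3.33), and 3 were higher, led by the decorin gene Dcn (3.94). None of 5 immune or 3 endothelial markers was called, and 1 of 6 neural markers, Tubb3, was lower in OV.

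Some arrays stood apart. Probes with a value ran from 2303 to 5137 per array for SMART at 10 pg and from 14198 to 18274 for unamplified cDNA. Turned to OV over 3T3, the arrays of a comparison correlated positively over probes, except arrays 1 and 4 of SMART (r = -0.09). The 4 arrays of GA at 10 pg correlated with each other over probes, at r between 0.455 and 0.846. Their means by gene, however, had an r of -0.06 with those of unamplified cDNA over 4002 genes. The other amplified targets had 0.48 to 0.80. Of the genes called in unamplified cDNA, 42.2% had the same sign in GA at 10 pg, and 78.1% to 95.95% had it in the others. None of 10 tested epithelial markers was called in GA at 10 pg, where their median was -0.26 and their range -0.69 to 1.77. Among them Krt8 (1.77) and Wt1 (0.82) were above 0 on every array and Upk1b (-0.28) below 0 on every array. Signs of GA at 10 pg are given as labelled, and would all turn if its labels were exchanged. Hybridization 1 of IVTIII is labelled as 3T3 in both channels, and hybridization 2 of GA is described as replicas. Each correlated positively with the other arrays of its comparison.

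In unamplified cDNA, 7 of 32 tested members were lower in OV and 1 was higher. The lower ones were Pgk1, Ldha and Pfkl of glycolysis and lactate formation and Cs, Suclg2, Idh2 and Idh3a of the citrate cycle and related dehydrogenases. The higher one was Slc16a3. A member was tested when all 4 arrays gave a value, and called when the log odds of a difference in limma (LOD) exceeded 0. Of 10185 genes 16.1% were called, 7.3% as lower and 8.81% as higher in OV, against 21.9% and 3.12% of the members. The median ratio was -0.19 over the members and -0.004 over all genes tested. At an adjusted p under 0.05 in place of the LOD, 20 members were called (48.8% of all genes). Of these 16 were lower and 4 higher in OV (24.8% and 24% of all genes). Those that passed only this threshold were Hk1, Hk2, Pfkp, Aldoc, Tpi1, Pgam1, Eno2, Dlat, Pgd, Tkt, Rpia and Idh1. The calls of Pgk1, Ldha, Cs and Suclg2 held when any 1 array was left out.

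**Figure D1:**
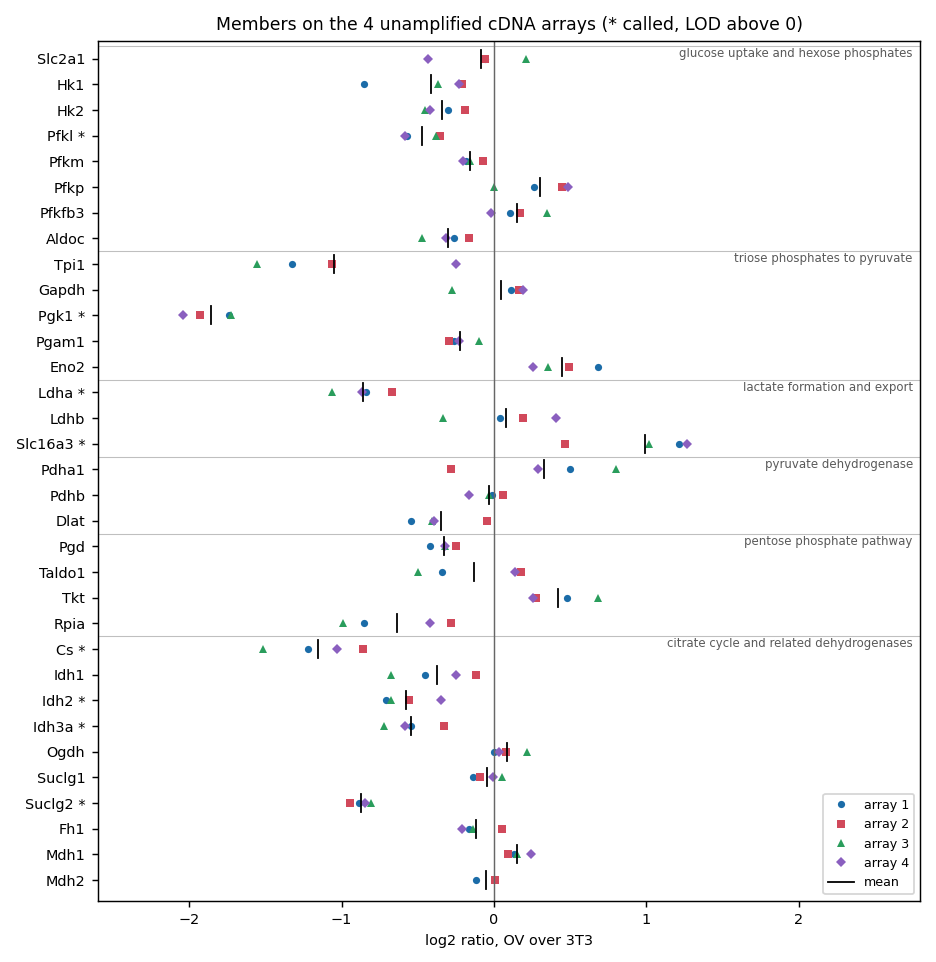
Log2 ratios of OV over 3T3 (horizontal axis) of the 33 members with a value in unamplified cDNA, by role (Mdh2 on 2 arrays only). Points are single arrays, short bars their mean and asterisks the 8 called members. Pgk1 lies farthest below 0, with all arrays between -2.04 and -1.73, and Slc16a3 farthest above it, between 0.47 and 1.27.

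Of 8 tested genes from glucose uptake to the hexose phosphates, 1 was called. Pfkl, the liver-type phosphofructokinase of the committed step, had ratios of -0.57, -0.36, -0.38 and -0.59 on arrays 1 to 4. All were below 0, with a mean of -0.47 ± 0.12 (SD, n = 4; limma, adjusted p = 0.00252), and the call was lost without array 1 (-0.44), 2 (-0.51), 3 (-0.50) or 4 (-0.43), and with a dye term. The other phosphofructokinases were not called, with 0.30 ± 0.22 for the platelet type Pfkp and -0.15 ± 0.06 for the muscle type Pfkm (SD, n = 4 each). The hexokinase genes Hk1 and Hk2, whose products trap glucose in the cell, were below 0 on every array, at -0.42 ± 0.30 and -0.34 ± 0.12 (SD, n = 4 each), and were not called. The glucose transporter Slc2a1 had arrays on both sides of 0, between -0.43 and 0.21.

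Pgk1 had the lowest ratio of all members. It encodes phosphoglycerate kinase, which makes the first ATP of glycolysis, and had -1.74, -1.93, -1.73 and -2.04. The mean of -1.86 ± 0.15 (SD, n = 4; limma, adjusted p = 7.22e-05) is a level in 3T3 3.63 times that in OV. Tpi1, triose phosphate isomerase, had -1.33, -1.06, -1.56 and -0.25. Its array 4 was nearer 0 than the others, and the mean of -1.05 ± 0.57 (SD, n = 4; limma, adjusted p = 0.00719) did not reach the LOD threshold. Tpi1 was called without array 4 (-1.32) and with a dye term in the fit. Pgam1, phosphoglycerate mutase, averaged -0.22 ± 0.09, and Eno2, the neuronal enolase, 0.45 ± 0.18 (SD, n = 4 each), neither of them called.

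Gapdh, the enzyme before Pgk1 and often used as a reference gene, had 0.11, 0.16, -0.28 and 0.19 and was not called. The array also holds 231 control spots annotated to Gapdh, which were set aside and whose content the files do not state. Their medians lay between -0.03 and 0.01 on the unamplified arrays and between -0.06 and 0.10 on all 28 arrays of OV and 3T3. The gene's own probe had a value on 26 of these arrays and spanned -0.28 to 0.80. It lay outside the central 90% of the control spots on 15 of the 26.

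Genes of lactate metabolism went both ways. Ldha, the lactate dehydrogenase subunit that favours lactate formation, had -0.84, -0.67, -1.06 and -0.87. All arrays were below 0, with a mean of -0.86 ± 0.16 (SD, n = 4; limma, adjusted p = 0.00055). Slc16a3, the gene of the lactate exporter MCT4, had 1.21, 0.47, 1.02 and 1.27. It was the one called member higher in OV, at 0.99 ± 0.37 (SD, n = 4; limma, adjusted p = 0.00212), a level in OV 1.99 times that in 3T3. Array 2 gave its lowest value, and the call was lost without array 1 (0.92), 3 (0.98) or 4 (0.90). Ldhb, the other lactate dehydrogenase subunit, had arrays between -0.33 and 0.41. Slc16a1, the gene of the related carrier MCT1, had no value on any of the 28 arrays.

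None of 3 tested pyruvate dehydrogenase genes and none of 4 tested pentose phosphate genes was called. Pdhb, the beta subunit of the first enzyme of the complex, stayed between -0.16 and 0.06, and Pdha1, the alpha subunit, spread from -0.28 to 0.80. Pgd, which forms NADPH in the pentose phosphate pathway, was below 0 on every array at -0.33 ± 0.07 (SD, n = 4). Rpia, the ribose 5-phosphate isomerase, averaged -0.64 ± 0.34 and was called with a dye term in the fit. Tkt, transketolase, was above 0 on every array, at 0.42 ± 0.20 (SD, n = 4 each).

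The genes of the citrate cycle and related dehydrogenases held 4 of the 7 lower calls, among 9 tested, with a median of -0.37. Of all genes 7.3% were called lower. The 17 tested citrate cycle genes outside the members had a median of -0.08. Cs, citrate synthase, which opens the cycle, had -1.22, -0.86, -1.51 and -1.03. Its mean of -1.16 ± 0.28 (SD, n = 4; limma, adjusted p = 0.000642) is a level in 3T3 2.23 times that in OV. Suclg2, the GTP-forming subunit of succinyl-CoA ligase, had -0.89, -0.95, -0.80 and -0.85. It had the smallest spread of the called members, at -0.87 ± 0.06 (SD, n = 4; limma, adjusted p = 0.000228), while Suclg1, the shared subunit of that enzyme, stayed between -0.14 and 0.05. Idh2, the mitochondrial NADP-dependent isocitrate dehydrogenase, had -0.71, -0.56, -0.68 and -0.35, a mean of -0.57 ± 0.16 (SD, n = 4, limma, adjusted p = 0.002). Idh3a, a subunit of the NAD-dependent enzyme, had -0.55, -0.33, -0.72 and -0.58, a mean of -0.54 ± 0.16 (SD, n = 4, limma, adjusted p = 0.00245). The call of Idh2 was lost without array 1 (-0.53), 2 (-0.58) or 3 (-0.54), and that of Idh3a without array 1 (-0.54), 3 (-0.48) or 4 (-0.53). Ogdh, Fh1 and Mdh1 stayed between -0.21 and 0.24 on all arrays.

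Other genes of these pathways were called in unamplified cDNA as follows, where 16.1% of all genes were. Of 17 tested citrate cycle genes outside the 40, Acly (-1.23), which makes cytosolic acetyl-CoA from citrate, and Dlst (-0.67), a subunit of 2-oxoglutarate dehydrogenase, were lower in OV. Of 19 such glycolysis genes the mitochondrial glycerol 3-phosphate dehydrogenase Gpd2 (-0.76) was lower, and of 5 pentose phosphate genes Prps2 (-0.82) and Rpe (-0.66) were. Among 5 genes around pyruvate dehydrogenase, Pdk2 (0.53), a kinase that inhibits the complex, was higher in OV and Mpc1 (-0.78), part of the mitochondrial pyruvate carrier, was lower. Of 18 genes of the hypoxia response, Hmox1 (1.63), the inducible haem oxygenase, and Hif1a (0.54), a subunit of HIF, were higher in OV, and Higd1a (-0.83) and Bnip3 (-0.70) were lower. The hypoxia list had a median of -0.06.

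After amplification from 10 ng the called members differed by method. SM37 called 10 of 26, all lower in OV (38.5%, beside 13% of all genes, 9.1% lower and 3.91% higher). GA called 3 of 28, all lower (10.7%, beside 8.23% of all genes, 6.14% lower and 2.09% higher). IVTIII called 1 of 18, higher in OV (5.56%, beside 22% of all genes, 10.4% lower and 11.6% higher). SMART called 0 of 30 (beside 3.54% of all genes, 1.01% lower and 2.53% higher). Its ratios were smaller over all genes tested, with an SD of 0.25 against 0.53 in unamplified cDNA. The study reports a compression of ratios by SMART. At an adjusted p under 0.05 the counts were 17 in SM37 (43% of all genes), 10 in GA (27.9%), 5 in IVTIII (55.9%) and 2 in SMART (7.06%). Without its array 1, SMART called Slc2a1 (1.06), Pgk1 (-0.86), Ldha (-0.57) and Suclg2 (-0.55). Of the 8 members called in unamplified cDNA, 4 of 6 tested in SM37 and 2 of 7 in GA were called with the same sign, and 0 of 8 in SMART and 0 of 4 in IVTIII. This count was not made over all genes. Called or not, 5 of 6 had the same sign in SM37 and 7 of 7 in GA (78.1% and 87.3% of all genes called in unamplified cDNA). In SMART 7 of 8 had it and in IVTIII 2 of 4 (93.6% and 80.9%).

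**Figure D2:**
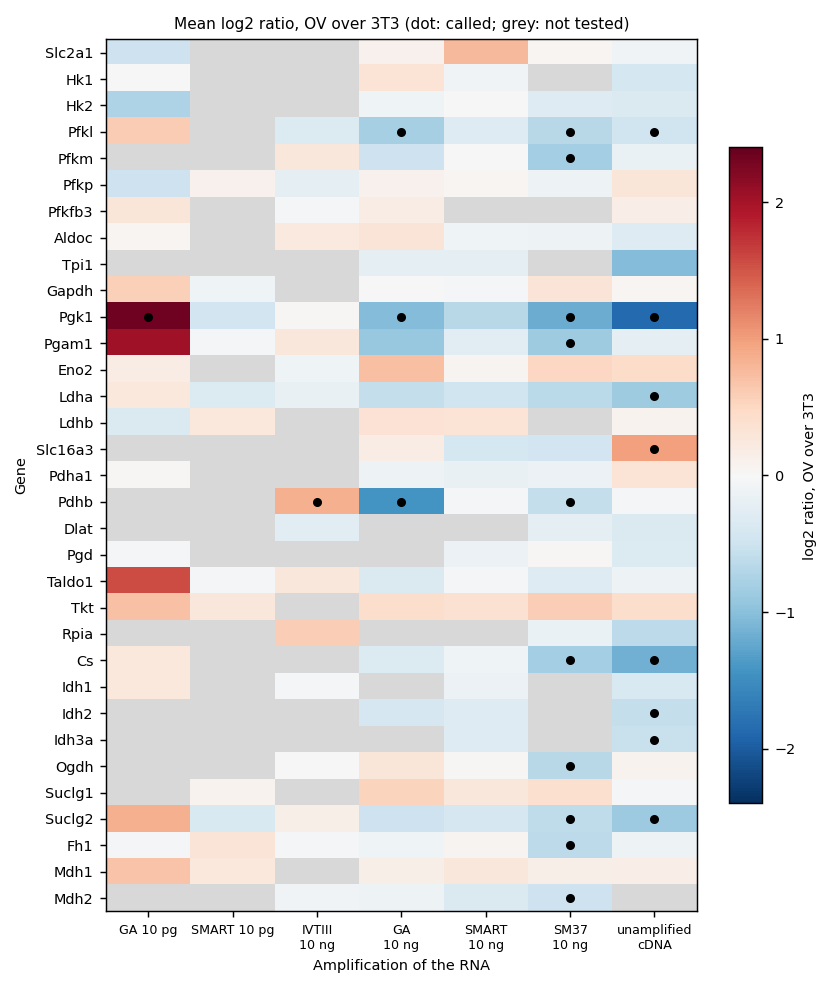
Mean log2 ratio of OV over 3T3 (colour) of each member with 4 values in at least 1 comparison (rows), by amplification (columns). Black dots mark called members and grey cells those not tested. SM37 holds 10 dots, SMART none, and Pgk1 has dots of both signs.

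Pgk1 was lower in OV in SM37 and GA, though nearer 0 than in unamplified cDNA. SM37 gave -0.72, -0.81, -1.61 and -1.63, a mean of -1.20 ± 0.49 (SD, n = 4; limma, adjusted p = 0.00178), with arrays 1 and 2 apart from 3 and 4. GA gave -0.64, -1.23, -1.09 and -1.18, a mean of -1.04 ± 0.27 (SD, n = 4; limma, adjusted p = 0.00316). The call was lost in SM37 without array 3 (-1.06) or 4 (-1.05), and in GA without array 2 (-0.97) or 3 (-1.02). SMART arrays ran from -1.34 to -0.05, and IVTIII arrays lay on both sides of 0, between -0.14 and 0.24. The ratio was above that of unamplified cDNA by 1.88 ± 0.12 in IVTIII, 1.20 ± 0.22 in SMART, 0.82 ± 0.15 in GA and 0.67 ± 0.21 in SM37 (SE; limma, adjusted p = 3.3e-06, 0.00398, 0.0061 and 0.0296). The difference of SM37 was lost without its array 1 (0.51) or 2 (0.54), or without array 2 (0.64) or 4 (0.61) of unamplified cDNA.

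Slc16a3 had the opposite sign in both SMART methods. SM37 gave -0.45, -0.44, -0.63 and -0.36, and SMART gave -0.31, -0.55, -0.38 and -0.44. All 8 arrays were below 0 and all unamplified arrays above it. Neither method called the gene by itself at an LOD above 0. At an adjusted p under 0.05 both did (limma, adjusted p = 0.00476 for SM37 and 0.0217 for SMART). The differences from unamplified cDNA were -1.46 ± 0.17 for SM37 and -1.41 ± 0.16 for SMART (SE; limma, adjusted p = 0.00015 and 0.000301). GA averaged 0.18 ± 0.22 (SD, n = 4), and IVTIII gave no value.

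Pdhb was called in opposite directions after amplification, from a ratio near 0 in unamplified cDNA. IVTIII gave 1.06, 0.89, 0.47 and 1.02, a mean of 0.86 ± 0.27 (SD, n = 4; limma, adjusted p = 0.00072). GA gave -1.10, -0.96, -1.70 and -1.98, a mean of -1.43 ± 0.48 (SD, n = 4; limma, adjusted p = 0.00342). SM37 gave -0.66, -0.69, -0.38 and -0.52, and SMART arrays lay on both sides of 0. The differences from unamplified cDNA were 0.90 ± 0.14 in IVTIII, -1.40 ± 0.21 in GA and -0.53 ± 0.11 in SM37 (SE; limma, adjusted p = 0.000495, 0.00237 and 0.00373). The call was lost in IVTIII without array 1 (0.79), the one with contradictory labels, 2 (0.85) or 4 (0.81), in GA without array 3 (-1.35), and in SM37 without array 1 (-0.53), 2 (-0.52) or 4 (-0.58).

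SM37 called 5 of 7 tested genes of the citrate cycle and related dehydrogenases, all lower in OV, beside 9.1% of all genes. Of the same list GA called 0 of 8, SMART 0 of 10 and IVTIII 0 of 5. SM37 called 0 of 12 tested citrate cycle genes outside the members. Ogdh, the 2-oxoglutarate dehydrogenase, had -0.67 ± 0.10, Fh1, fumarate hydratase, -0.63 ± 0.10, and Mdh2, the mitochondrial malate dehydrogenase, -0.49 ± 0.06 (SD, n = 4 each). Cs had -0.82 ± 0.29 and Suclg2 -0.62 ± 0.18 (SD, n = 4 each). Ogdh and Fh1 were nearer 0 in unamplified cDNA, from which they differed by -0.75 ± 0.10 and -0.52 ± 0.11 (SE; limma, adjusted p = 0.000398 and 0.00365). In glycolysis Pfkm (-0.81 ± 0.12) and Pgam1 (-0.85 ± 0.25, SD, n = 4 each) were called, and differed from unamplified cDNA by -0.65 ± 0.10 and -0.63 ± 0.13 (SE). The calls of Pfkm, Pgam1 and Ogdh held without any 1 array. That of Cs was lost without array 1 (-0.75) or 3 (-0.73), of Fh1 without 4 (-0.58), of Suclg2 without 1 (-0.59), 2 (-0.55) or 3 (-0.63), and of Mdh2 without any of them (-0.52 to -0.48). With a dye term in the fit SM37 called 6 members, as 5 of the 10 calls were lost (Pfkl, Pgk1, Pdhb, Suclg2 and Mdh2) and Ldha (-0.65) was added. That of Mdh2 was also lost with dye-swap pairs as a block.

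Pfkl, like Pgk1, was called as lower in OV in SM37, GA and unamplified cDNA. SM37 gave -0.74, -0.92, -0.60 and -0.41, and GA gave -0.66, -0.76, -0.80 and -1.01. All 8 arrays were below 0, and neither difference from unamplified cDNA passed the test. The call was lost in SM37 without array 1 (-0.65), 2 (-0.58) or 3 (-0.69), and in GA without array 2 (-0.82) or 3 (-0.81).

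The ratio differed from that of unamplified cDNA for 9 of 17 members in IVTIII (48.1% of all genes), 10 of 27 in GA (21.4%), 7 of 29 in SMART (18%) and 10 of 25 in SM37 (37.9%), at an adjusted p under 0.05 over all genes with values on all 8 arrays. These comparisons share the unamplified arrays. In IVTIII, Rpia (0.59 ± 0.41) and Suclg2 (0.14 ± 0.11, SD, n = 4 each) were above 0 on every array, where all unamplified arrays were below it. Aldoc, the brain-type aldolase, was above 0 on every array of IVTIII and GA, and Hk1 on every array of GA, both below 0 on every unamplified array. Cs was nearer 0 than in unamplified cDNA, by 0.83 ± 0.16 in GA and 1.05 ± 0.15 in SMART (SE, limma, adjusted p = 0.0075 and 0.000772). Over all genes tested the SD of the ratios was 0.49 in GA, 0.25 in SMART and 0.53 in unamplified cDNA. Without any 1 array, 9 of the 9 differences of IVTIII held, 5 of 10 of GA (Hk1, Aldoc, Pgk1, Pdhb and Cs), 3 of 7 of SMART (Pgk1, Slc16a3 and Cs) and 6 of 10 of SM37 (Pfkm, Pgam1, Slc16a3, Pdhb, Ogdh and Fh1).

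**Figure D3:**
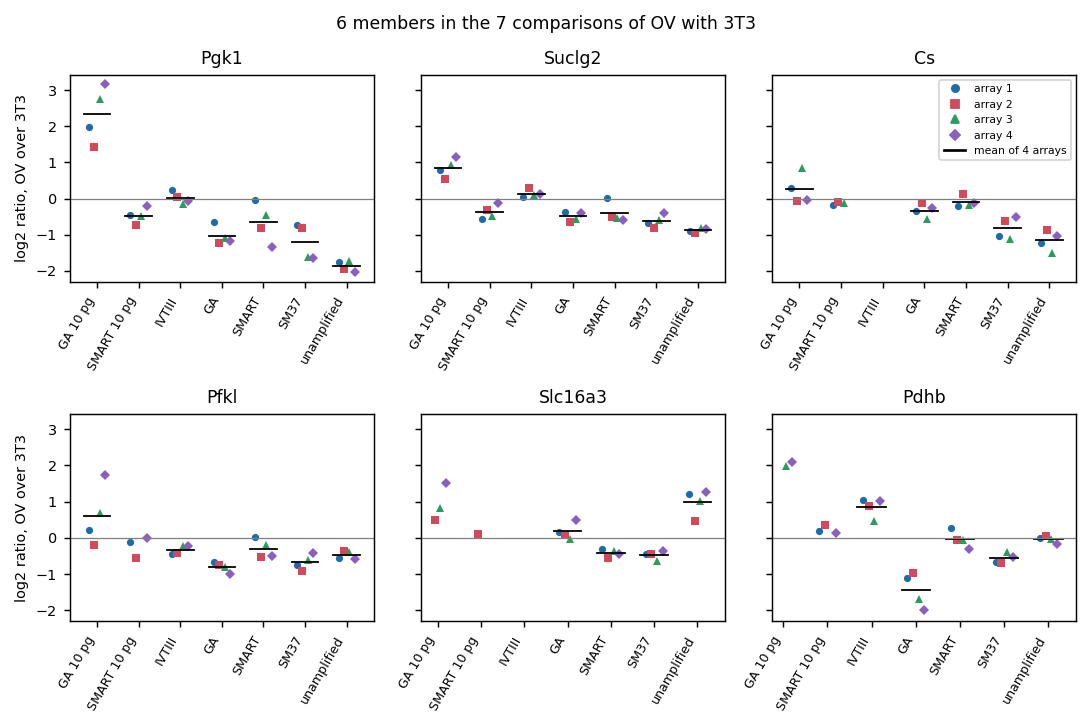
Log2 ratio of OV over 3T3 (vertical axis) of 6 members on every array with a value, by amplification (horizontal axis). Points are arrays and bars the mean where all 4 had a value. Pgk1 lies between -2.04 and -1.73 in unamplified cDNA and between 1.43 and 3.17 in GA at 10 pg, and Slc16a3 is above 0 on all unamplified arrays and below 0 on all arrays of SMART and SM37.

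SMART at 10 pg gave 4 values for 12 members and called 0 (beside 8.97% of all genes, 2.93% lower and 6.04% higher), with 6 at an adjusted p under 0.05 (33.3% of all genes). Pgk1 gave -0.46, -0.74, -0.47 and -0.20, a mean of -0.47 ± 0.22 (SD, n = 4, limma, adjusted p = 0.0052). Suclg2 gave -0.56, -0.33, -0.47 and -0.13, a mean of -0.37 ± 0.19 (SD, n = 4, limma, adjusted p = 0.00917). Both were below 0 on every array, and Pgk1 was called without array 4 (-0.56). From unamplified cDNA 4 of 12 members differed (34.8% of all genes), Pgk1 by 1.39 ± 0.12, Ldha by 0.53 ± 0.14, Suclg2 by 0.50 ± 0.10 and Fh1 by 0.42 ± 0.09 (SE). Between 10 pg and 10 ng of SMART, 0 of 12 members differed (0.0932% of all genes), and the differences lay between -0.18 and 0.24.

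GA at 10 pg gave 4 values for 22 members and called 1, higher in OV (beside 5.45% of all genes, 2.71% lower and 2.73% higher), with 3 at an adjusted p under 0.05 (17.1% of all genes). The called member was Pgk1, with 1.98, 1.43, 2.74 and 3.17, a mean of 2.33 ± 0.78 (SD, n = 4; limma, adjusted p = 0.0098). All arrays were above 0, against all below 0 in GA at 10 ng and in unamplified cDNA, from which it differed by 3.37 ± 0.36 and 4.19 ± 0.35 (SE; limma, adjusted p = 0.000271 and 7.14e-05). The call was lost without array 1 (2.45), 3 (2.19) or 4 (2.05), and with a dye term in the fit. Pgam1 had 2.34, 0.68, 2.63 and 2.46, with array 2 apart from the others. Without array 2, Pgam1 (2.48) and Taldo1, transaldolase (2.12), were called. Suclg2 had 0.80, 0.53, 0.94 and 1.16, above 0 on every array. Of the 5 members called in unamplified cDNA and tested here, 0 had the same sign as labelled, beside 42.2% of all genes called there. Whether the labels were exchanged was not tested. From GA at 10 ng 6 of 20 members differed (28.7% of all genes), and from unamplified cDNA 9 of 22 (35.9%). Without any 1 array, 3 of the 6 held (Pgk1, Pgam1 and Suclg2), with counts between 3 and 9, and 5 of the 9 (Pfkp, Pgk1, Pgam1, Cs and Suclg2), with counts between 5 and 12.

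Technical replicas of OV RNA gave the spread of the members with no difference between cell lines. The SD of the log2 ratios over members was 0.81 in GA at 10 pg, 0.48 at 100 pg, 0.26 at 1 ng and 0.28 at 10 ng. In SMART it was 0.44 at 10 pg, 0.14 at 100 pg, 0.06 at 1 ng and 0.15 at 10 ng, where the 1 ng arrays are described as 100 pg in a part of their labels. SM37 gave 0.42 over 8 members, IVTIII 0.26 over 21, and unamplified cDNA 0.10 over 32 on its single array. Over all genes the SD was 0.63 in GA at 10 pg, 0.33 in SMART at 10 pg and 0.12 in unamplified cDNA.

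**Figure D4:**
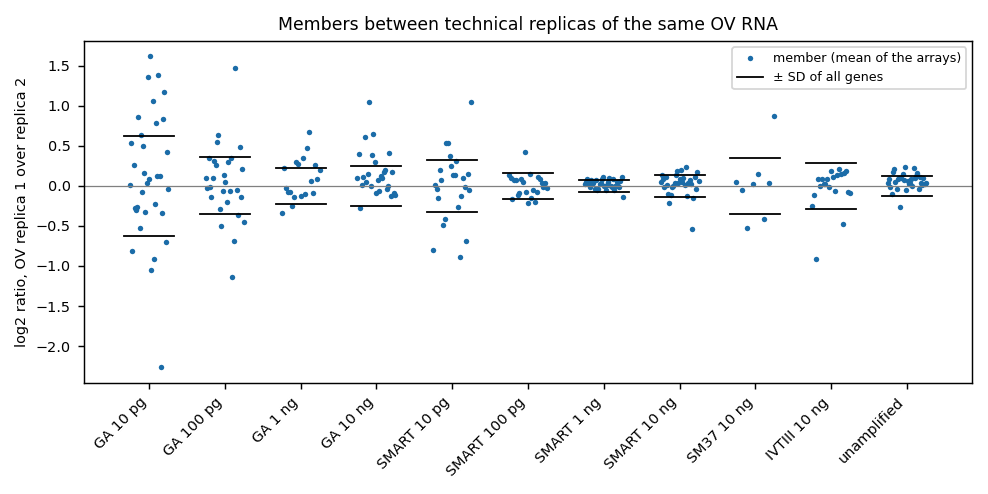
Log2 ratio of OV replica 1 over replica 2 (vertical axis) of each member with a value on every array, as the mean of the 1 or 2 arrays, by method and input (horizontal axis). Horizontal lines are plus and minus 1 SD over all genes. In GA at 10 pg 7 of 33 members exceed 2-fold.

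Single members also differed between replicas. In GA at 10 pg the replicas gave 1.37 and 1.41 for Pgk1, 1.28 and 1.06 for Suclg2 and 1.40 and 0.73 for Pfkl. Ldha gave 0.80 and 0.21, and Cs 0.75 and 0.32. Taldo1, whose OV over 3T3 mean was 1.56 in GA at 10 pg, gave -0.68 and -0.72, and Idh1 gave 0.46 and -1.52. Slc16a3 gave -2.85 and -1.67, the largest difference of a member, and in all 7 of 33 members exceeded 2-fold, beside 11% of all genes. The part of this spread in the ratios of OV over 3T3 was not tested. At 10 ng, GA replicas gave -0.88 and 1.24 for Pgk1, of opposite sign on its dye-swapped arrays. SMART replicas at 10 pg gave -0.22 and -0.03 for Pgk1. In OV hybridized against itself the SD over members was 0.14 in GA, 0.14 in IVTIII over 7 members and 0.11 in unamplified cDNA. Amplifications of RNA from pooled neural stem cells, by the study's methods parts of a single RNA sample, gave 0.32 in GA and 0.19 in SMART.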

How the data were processed

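The authors deposited, for each spot, a log2 ratio of 2 dyes, made from GenePix intensities by background subtraction and print-tip lowess in limma (version not given in the sources used here). Intensities were not used here, so the depth behind a value is unknown, and why some spots lack a value is not given. Precision is limited by the number of arrays.

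Probes were named from the platform annotation (16632 with 1 symbol, 139 with several, 4995 with none), 231 control spots were set aside, and probes were averaged by gene. Ratios were turned by the dye labels. For hybridization 1 of IVTIII the dye in the description was followed, and for hybridization 2 of GA the title and channels. Inputs follow the series' design, since many labels give other units.

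Genes with values on all 4 arrays were fitted with limma 3.58.1 (R 4.3.3), with eBayes at a prior proportion of 0.01, and called at an LOD above 0. Method differences were called at a Benjamini-Hochberg adjusted p under 0.05. Adjusted p values are over all genes tested. Values on every array were given for members called in unamplified cDNA, and other members were named where called or different in another comparison. Of each list of other pathway genes up to 4 called in unamplified cDNA were named. Further members were named after their values were seen. Members and lists were chosen with earlier results of these data known. The fits were tested on simulated data. Alternatives were filters on missing values, the threshold, robust variance, a dye term, scaling, dye-swap pairs or replicate number as a block, fits by probe, and each array left out. Figures used matplotlib 3.10.9 (Python 3.11.15).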

Additional observations from a re-analysis of the deposited data

Results flagged for a closer look

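Of 168 sets of 4 arrays, 10 held 1 array far from the other 3, where chance gives about 1 set in 20. In IVTIII these were array 1 for Aldoc (0.46) and Fh1 (0.46), the array with contradictory labels. In GA they were array 2 for Slc2a1 (0.40) and array 1 for Taldo1 (-0.55). In SMART they were array 4 for Suclg1 (0.06) and array 1 for Suclg2 (0.02), in SM37 array 2 for Tkt (1.06), and in SMART at 10 pg array 2 for Mdh1 (0.50). In GA at 10 pg they were array 3 for Hk2 (-1.39) and array 2 for Pgam1 (0.68).

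Members whose 4 arrays all had 1 sign in a method and the other sign in the method it was set against, with a difference past an adjusted p of 0.05 in limma, were as follows. IVTIII differed from unamplified cDNA in this way for Rpia (by 1.23), Suclg2 (1.01), Aldoc (0.54), Pgam1 (0.50) and Pfkm (0.42). GA did so for Hk1 (0.74) and Aldoc (0.61), and SMART (-1.41) and SM37 (-1.46) for Slc16a3. GA at 10 pg differed from unamplified cDNA for Pgk1 (4.19), Pgam1 (2.25) and Suclg2 (1.73). It differed from GA at 10 ng for Pgk1 (3.37), Pgam1 (2.93), Suclg2 (1.35) and Pfkp (-0.60), of which that of Pfkp was lost without any 1 array except array 1 of GA at 10 pg.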

How the results depend on the processing

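At an adjusted p under 0.05 in place of the LOD, the count of called members was 20 in unamplified cDNA, 5 in IVTIII, 10 in GA, 2 in SMART, 17 in SM37, 6 in SMART at 10 pg and 3 in GA at 10 pg. With a dye term it was 3 in SMART, 6 in SM37, 1 in SMART at 10 pg and 0 in GA at 10 pg. With values on at least 2 arrays it was 1 in SMART and 2 in GA at 10 pg, and in a fit by probe 2 in GA at 10 pg. Scaling by median and MAD gave 1 in SMART and 1 in SMART at 10 pg, as did dye-swap pairs as a block. Leaving out 1 array gave 4 to 6 in unamplified cDNA, 0 to 1 in IVTIII, 0 to 4 in GA, 0 to 4 in SMART, 5 to 6 in SM37, 0 to 1 in SMART at 10 pg and 0 to 3 in GA at 10 pg. Differences from unamplified cDNA then numbered 9 to 11 in IVTIII, 5 to 9 in GA, 3 to 8 in SMART, 7 to 9 in SM37, 4 to 6 in SMART at 10 pg and 5 to 12 in GA at 10 pg, and those between 10 pg and 10 ng of GA 3 to 9. The causes were not tested.

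Hybridization numbers did not pair the arrays of different methods (correlations of same-numbered arrays between -0.228 and 0.246). With the number as a replicate block, 4 members in place of 7 differed between SMART and unamplified cDNA, and no other count of differences moved by over 1.5 times. Over 78 results for single members, 0 alternative values reversed, 738 kept their side of the threshold and 175 lost their call. Leaving out 1 array kept 379 and lost 153. Only scaling and leaving out 1 array could change a member's ratio, so the other alternatives could not reverse a sign. The 78 results were those called in the main fit, so calls gained in an alternative are not among these counts.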
